A study of Drosophila melanogaster with 2 samples.

Results

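The 10 genes described here belong to the Wingless and Hedgehog signalling pathways: wg, arm, sgg, Axn, pan and nkd on the Wingless side, and hh, ptc, smo and ci on the Hedgehog side. They were taken by name, out of 18277 annotated genes on the chromosome arms, and each was examined over its annotated length and 5 kb on either side. The measurements were sites of CG17328, a zinc-finger protein of Drosophila melanogaster, mapped by chromatin immunoprecipitation and sequencing. Both samples were biological replicates of 1 group: whole embryos, 0 to 24 h old, from a transgenic strain in which CG17328 is fused to eGFP, with the fusion precipitated through the eGFP. Embryos of this age range hold many stages and cell types together, so a peak cannot be assigned to a segment or a cell. No second genotype and no control library was analysed here, so no comparison between conditions was possible, and whether any peak depends on the tagged protein was not tested.

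Wingless is a secreted Wnt ligand. In its absence a destruction complex built on Axin, with the kinase Shaggy, marks Armadillo, the fly β-catenin, for degradation; in its presence Armadillo enters the nucleus and works with the DNA-binding factor Pangolin. Hedgehog binds Patched and thereby releases Smoothened, which changes the processing of the transcription factor Ci. In the embryonic epidermis, cells that make Wingless and cells that make Hedgehog lie side by side in each segment and sustain each other's expression.

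The highest peaks at these genes are shown first as sequence, because their height, their place and their base composition recur in the results. Each line gives a summit with 50 bases on either side, 5′ to 3′ on the plus strand of the RefSeq copy of assembly dm6, with unbroken runs of at least 6 A or T bases in capitals. The 8 summits are those of highest pooled signal outside ptc.
sgg internal promoter (chrX:2646413-2646513): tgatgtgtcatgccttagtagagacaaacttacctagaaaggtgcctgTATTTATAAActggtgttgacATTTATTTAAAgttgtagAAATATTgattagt
nkd promoter (chr3L:19045556-19045656): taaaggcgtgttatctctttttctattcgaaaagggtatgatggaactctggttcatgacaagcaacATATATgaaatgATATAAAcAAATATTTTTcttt
pan upstream flank (chr4:67205-67305): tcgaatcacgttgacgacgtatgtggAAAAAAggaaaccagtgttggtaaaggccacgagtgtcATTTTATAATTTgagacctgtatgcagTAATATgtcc
nkd intron, 12129 bp from the start (chr3L:19033270-19033370): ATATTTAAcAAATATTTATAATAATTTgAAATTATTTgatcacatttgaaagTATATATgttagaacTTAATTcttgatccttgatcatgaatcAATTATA
nkd intron, 20444 bp from the start (chr3L:19024955-19025055): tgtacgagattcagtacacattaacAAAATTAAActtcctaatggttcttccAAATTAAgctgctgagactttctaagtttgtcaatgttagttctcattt
nkd intron, 2802 bp from the start (chr3L:19042597-19042697): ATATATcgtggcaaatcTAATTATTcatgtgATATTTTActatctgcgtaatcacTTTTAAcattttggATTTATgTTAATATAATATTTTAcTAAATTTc
smo downstream flank (chr2L:286573-286673): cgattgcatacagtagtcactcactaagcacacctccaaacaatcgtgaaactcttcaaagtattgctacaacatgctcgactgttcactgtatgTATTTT
wg intron (chr2L:7313623-7313723): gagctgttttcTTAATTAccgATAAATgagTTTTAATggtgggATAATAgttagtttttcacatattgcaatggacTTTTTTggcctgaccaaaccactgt

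Peaks were found at 7 of the 10 genes. The authors' conservative list, drawn from both samples, placed 24 summits in the windows: 4 at nkd, 2 at sgg, 2 at wg and 1 at pan, then 10 at ptc, 3 at smo and 2 at hh. The windows of arm, Axn and ci held none. A gene window holds a conservative summit often by itself: 48.1% of all annotated genes had one, and 51.2% of the 13968 protein-coding genes. Long windows held more, with 46.3% of protein-coding genes called at a window length of at most 15 kb, 63.6% at 15 to 30 kb and 71.7% over 30 kb. Among the members, the only gene of the shortest class had a peak, as did 3 of 6 in the middle class and 3 of 3 in the longest. The count of genes with a peak was therefore near the background, and the genes differed in how many peaks they held, how high these were and where they lay.

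**Figure D1:**
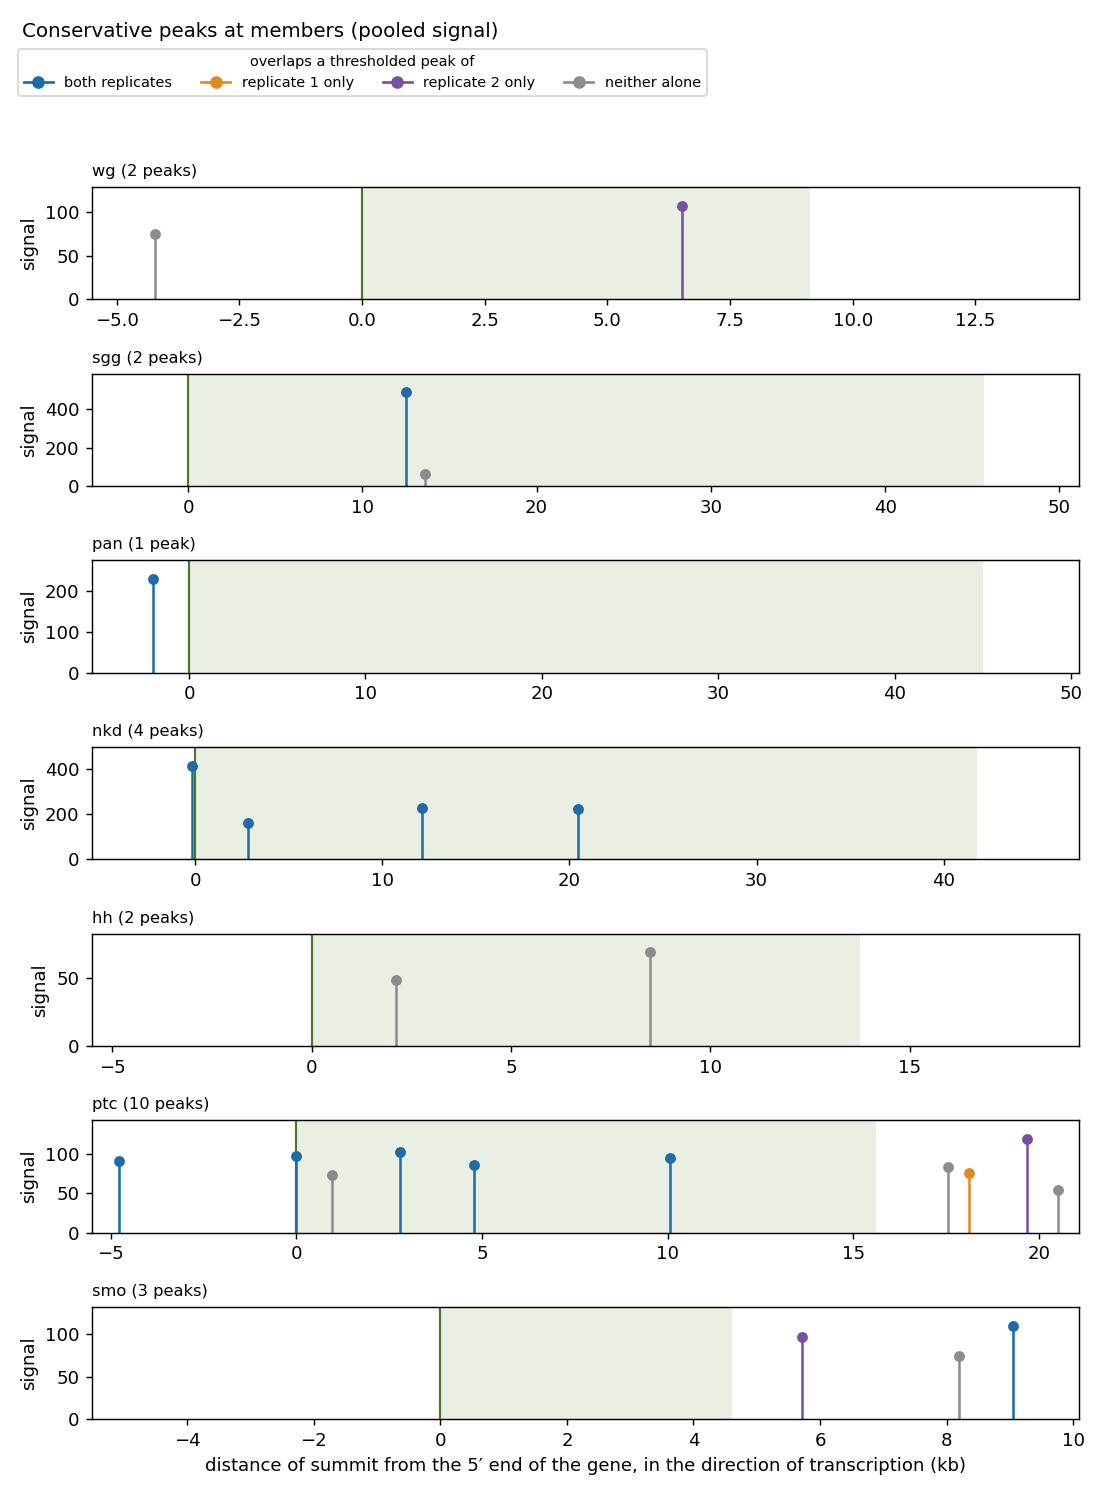
Each panel plots the conservative peaks of 1 gene as the distance of the summit from the 5′ end of the gene (kb, in the direction of transcription) against the authors' pooled signal, on a vertical axis of its own. Shading marks the gene and the colour shows which replicate's thresholded list has an overlapping peak. All 4 peaks at nkd were in both lists, while the 10 at ptc, from 53.5 to 118.6, were a mixture.

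Signal is the authors' peak height. Over the 24 member peaks it ran from 48.6 to 487, with a median of 95.6, beside a median of 94.5 over the 5802 conservative peaks on the arms. Of the 24, 13 were above that median and 2 stood in the top 10% of the list, 1 at sgg and 1 at nkd. Each sample also has a thresholded list of its own: 12 of the member peaks overlapped an entry in both of these, 8 in neither, 3 only in that of replicate 2 and 1 only in that of replicate 1. Over all conservative peaks the share found in both was 49.8% and in neither 24.9%. By place relative to the member, 12 summits were intronic, 5 lay in the upstream flank and 7 in the downstream flank, and no summit was in a member's coding exon or UTR. The nearest annotated start site belonged to the member itself for only 9 of the 24.

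Promoter peaks, defined by a distance of at most 500 bp between summit and any start site of the gene, were present at sgg, nkd and ptc. These 3 of 10 genes are read against 17.0% of all genes and 20.1% of protein-coding genes called by the same rule. sgg has 11 annotated start sites, so it had more chances than genes such as nkd or ptc, which have 1 each.

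The highest member peak lay at sgg (FBgn0003371), which encodes Shaggy, the fly GSK3 kinase. The peak spanned X from 2646334 to 2646570 and had a pooled signal of 487, rank 185 of 5807. It measured 186 in replicate 1 and 274 in replicate 2, with summits 20 bp before and 2 bp after the pooled one. Both replicates therefore placed it at the same site and well above the median of their own thresholded lists, 60.2 and 68.0. The summit lay at -174 bp relative to an internal start site, used by 1 of the 19 annotated transcripts, and 12511 bp into the gene, so that 14 of the 19 transcripts span it. A second, low peak followed 930 bp after the same start site, with a pooled signal of 63.1; it was in neither sample's own list and was missing from the other series-level list. Of the bases printed above for the main summit, 31.7% were G or C.

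At nkd (FBgn0002945), which encodes Naked cuticle, an antagonist of Wingless signalling that the pathway itself induces, all 4 peaks were in both replicate lists. The promoter peak, 3L from 19045526 to 19045722, had a pooled signal of 413 (rank 248) with its summit at -157 bp, and measured 166 and 239 in replicates 1 and 2. It was the highest of the 4 in each replicate. The other series-level list had 5 peaks in this window. Inside the gene, peaks at 2802, 12129 and 20444 bp from the start site had pooled signals of 158.6, 225 and 221. They measured 63.2, 107 and 89.3 in replicate 1 and 97.7, 126 and 133 in replicate 2. The order of the intronic peaks thus differed between replicates for the upper pair, and the peak nearest the promoter was the lowest in both. The peak at 12129 bp also lay in the transcribed region of lncRNA:CR45940, 580 bp from the start site of that noncoding gene, and had the lowest G+C content of all member summits, 17.8%. The start site of lncRNA:CR45940 was also the nearest to the peak at 20444 bp, at 8895 bp. A count of 4 or more summits was reached by 27.4% of protein-coding genes with a window over 30 kb. What set nkd apart among the members was height: its peaks took 4 of the 6 highest places.

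pan (FBgn0085432) encodes Pangolin, the TCF-type factor that binds DNA for Armadillo. Its only peak, chromosome 4 from 67198 to 67301, had a pooled signal of 229.8 (rank 766) and measured 118.6 in replicate 1 and 116 in replicate 2. It was thus a strong peak with nearly equal values in the 2 samples, at a ratio of replicate 2 to replicate 1 of 0.979. Over all peaks found in both replicates that ratio had a median of 1.24 and a lower quartile of 1.04. Whether both signals are on 1 scale is not stated. The summit lay at -2071 bp from the nearest start site of pan, but at -48 bp from that of RpS3A, a gene of a small-subunit ribosomal protein. The ranked list behind the conservative one held no other candidate anywhere in the 54.9 kb window of pan.

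At wg (FBgn0284084), the gene of the Wingless ligand, both peaks were closest to the start site of wg itself. The intronic one, 2L from 7313515 to 7313830 and 6514 bp after the start site, had a pooled signal of 107, with 50.6 in replicate 1 and 61.4 in replicate 2. Only replicate 2 had it in its own thresholded list. The other lay at -4217 bp with 74.1, or 33.1 and 36.2 in the replicates, and was in neither list. No peak was at the promoter of wg.

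The remaining Wingless members had no peak. For arm (FBgn0000117), which encodes Armadillo, the highest of 26 candidates had a signal of 41.7 at -29 bp from a start site, in the 5′ UTR of an annotated transcript. The lists were cut on the IDR, a measure of how poorly a peak's rank is repeated between data sets, at 0.01 or a −log10 of 2. That candidate had a −log10 IDR of 0.219, and the next had 33.8 and 0.605. Axn (FBgn0026597), which encodes the scaffold of the destruction complex, came closer. Its 2 highest candidates lay at -735 and -155 bp from the start site with signals of 58.2 and 52.0, and −log10 IDR values of 1.91 and 1.61. The lowest member peaks inside the threshold were of like size: 53.5 at ptc, with 2.08, and 48.6 at hh, with 2.28. Axn therefore missed the list narrowly, whereas arm did not approach it.

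**Figure D2:**
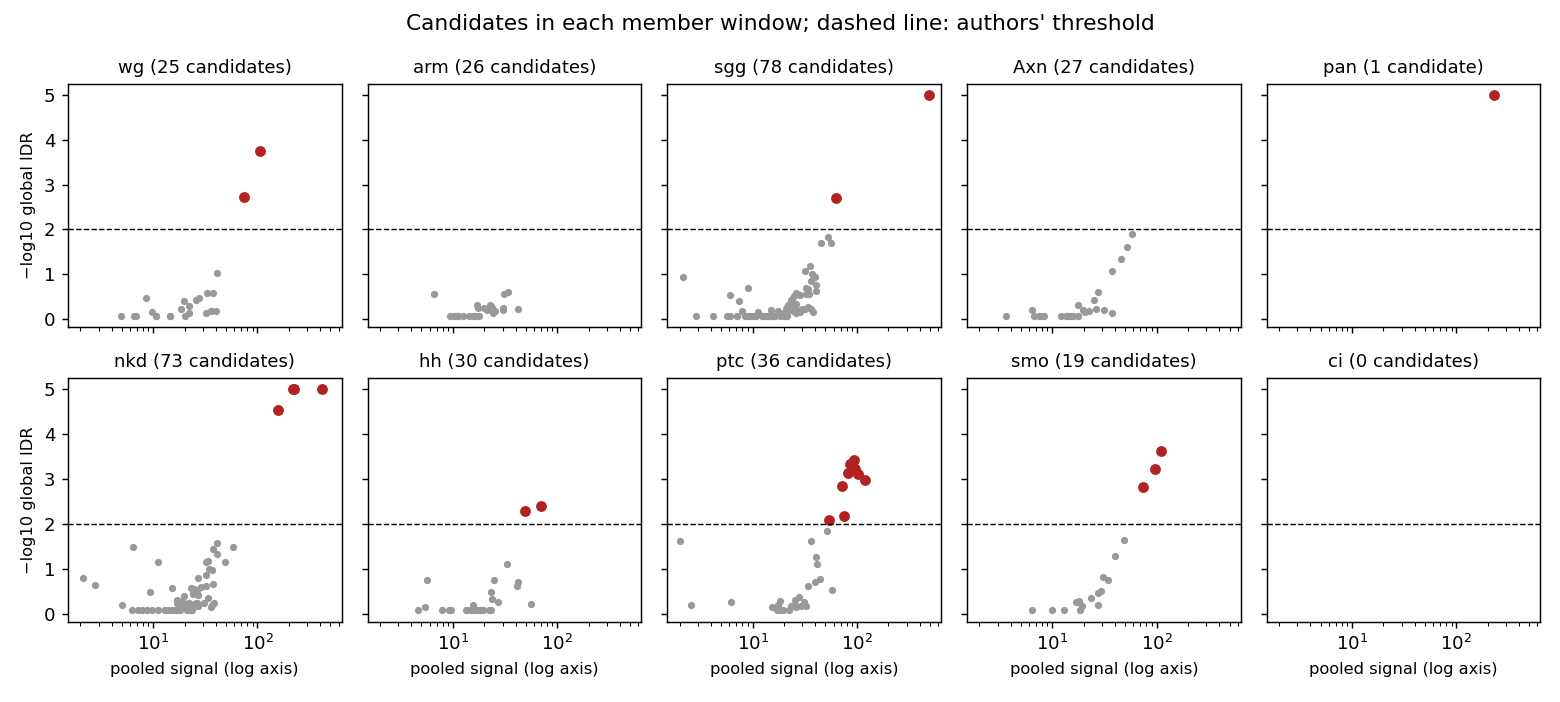
Each panel plots every candidate of the ranked series-level list in 1 member window, with pooled signal (log axis) against −log10 of the global IDR, which the files cap at 5. Red points pass the authors' threshold of 2 (dashed line). The candidates of arm stay well under the line, 1 of Axn reaches 1.91, pan has 1 candidate and ci has none.

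On the Hedgehog side, ptc (FBgn0003892) stood out by number. It encodes Patched, the receptor of Hedgehog, and is itself a known target of the pathway. Its 10 summits fell on 2R between 8644869 and 8670156, over 25287 bp, with gaps from 566 to 7499 bp. Only 29 of 13968 protein-coding genes (0.208%) had as many, and of the 2470 with windows of 15 to 30 kb, only 2 did. These were ptc and ph-p, a Polycomb group gene, which had 12. The other genes in that group had windows of up to 404 kb (kirre, with 30 peaks). The count at ptc was lower under some other settings. It was 7 in the own list of replicate 1, where 2 entries overlap the promoter peak, and 6 in that of replicate 2. It was 4 among the 2901 conservative peaks of higher signal, 6 with a flank of 2 kb and 4 with none. It stayed at 10 in the other series-level list and with any overlap counted, and was 11 with a flank of 10 kb.

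None of the ptc peaks was high. From the 5′ side, pooled signals were 90.4 at -4780 bp from the start site, 96.4 at -3 bp, 72.3 at 963 bp, 102 at 2789 bp, 85.8 at 4786 bp and 94.7 at 10065 bp. Past the end of the gene they were 83.0, 75.1, 118.6 and 53.5, all inside the neighbouring gene Acsl, which encodes a long-chain acyl-CoA synthetase. The cluster is thus made of peaks around the median height of the list, spread over ptc and Acsl, and 6 of the 10 lay upstream of or within ptc. Of the intronic ones, those at 963, 2789 and 4786 bp were nearest to the start site of lncRNA:CR44281, and that at 10065 bp, like the 4 past the gene, to a start site of Acsl.

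The 5 ptc peaks that both samples' own lists contained were all among those 6. In replicates 1 and 2 respectively, the one at -4780 bp measured 43.4 and 49.7, and the promoter peak 41.1 and 46.3. At 2789 bp it was 32.2 and 74.1, the least even of the 5. At 4786 and 10065 bp it was 48.2 and 49.7 in replicate 1 and 44.4 and 46.4 in replicate 2. At 963 bp the peak was in neither list, with 37.2 and 36.2. Of the 4 peaks in Acsl, the highest measured 30.5 in replicate 1 and 96.7 in replicate 2, and none was in both lists. Most of the cluster at ptc itself was therefore called in both samples separately, whereas no peak in Acsl was.

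The window of ptc held 36 candidates, or 141 per 100 kb, which equals the value at nkd and is close to the 140 at sgg, beside 89.7 per 100 kb over the arms. All member windows off chromosome 4 held 120 to 141 per 100 kb, also those without a peak, arm (135) and Axn (120). At ptc 27.8% of the candidates became conservative peaks, against 2.56% at sgg, 5.48% at nkd and 4.70% over all arms. The share was 15.8% at smo, 8.0% at wg, 6.67% at hh, and 0% at arm and Axn. At pan the single candidate passed, and ci had no candidate. Of 3711 protein-coding genes with at least 20 candidates, a limit set after the values were seen, 17 (0.458%) reached the share of ptc. The median share of these genes was 4.55%.

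**Figure D3:**
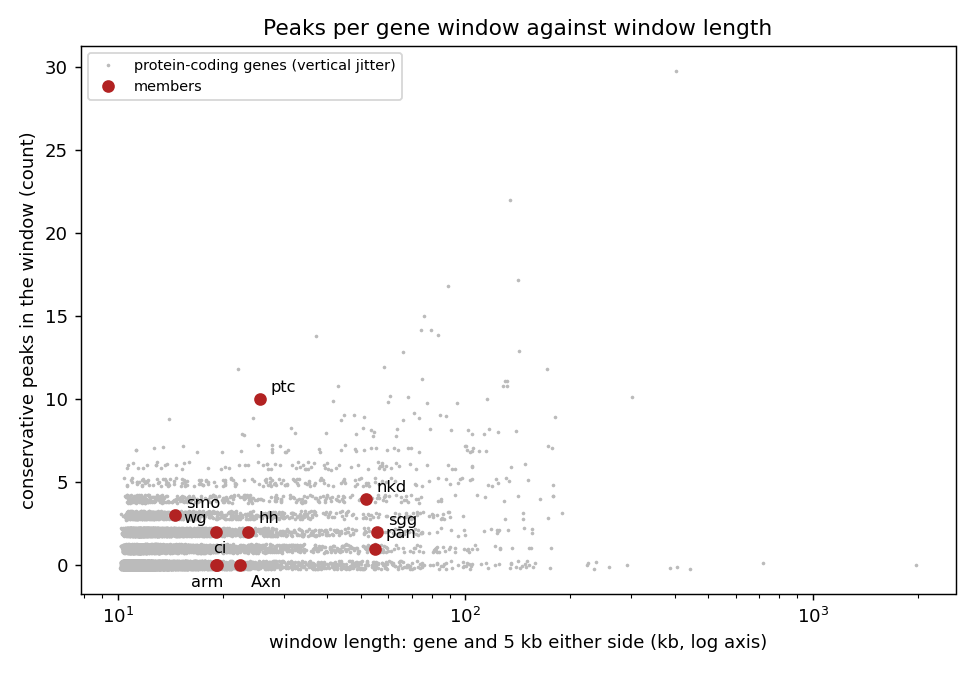
Points show the number of conservative peaks in the window of each protein-coding gene (grey, with vertical jitter) and of the members (red), against window length on a log axis. ptc, with 10 peaks in 25.6 kb, lies above nearly all genes of its length, and the other members lie among the grey points.

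The peaks assigned to smo (FBgn0003444), which encodes the transducer Smoothened, lay outside it. All 3 were in the downstream flank, at the start sites of other genes. The first was at -25 bp from CG11601, with a pooled signal of 96.5, or 42.6 and 45.0 in the replicates. Those at -53 and -92 bp from start sites of CG3625 had 74.5 and 110.5, and only the last was in both lists, at 49.8 and 55.3. Within the 4.59 kb of smo itself no summit passed.

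hh (FBgn0004644), the gene of the ligand Hedgehog, had 2 low peaks, both intronic. They lay 8486 and 2126 bp after the start site with pooled signals of 69.3 and 48.6, ranks 4246 and 5526 of 5807. The start site nearest to the first was that of CG31457, at -5439 bp, and to the second that of hh. Replicate values were 31.5 and 25.3 in replicate 1, and 29.5 and 41.9 in replicate 2. Neither peak was in either sample's own list, and the lower one was missing from the other series-level list as well. Of the members with peaks, hh was the only one with none in a single-sample list.

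ci (FBgn0004859) encodes the GLI-type transcription factor of the pathway. Its window held no peak in either series-level list and no candidate in the ranked list behind the conservative one. Replicate 1 alone listed a thresholded peak 3 bp before a start site of ci, chromosome 4 from 56192 to 56475, with a signal of 38.8, a −log10 IDR of 2.29 and rank 3261 of 3713. The ranked list of replicate 2 had no entry that overlaps it. Both ci and pan are on chromosome 4, where the ranked list held 10.2 candidates per 100 kb, against at least 87.7 on each of the 5 large arms. Conservative peaks were also sparser there, at 0.964 per 100 kb. The part of that scarcity in the values of pan and ci was not tested.

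Per length, the member windows together held 24 peaks in 306 kb, or 7.84 per 100 kb, beside 4.22 over the arms. ptc carried most of the difference: without it the other 9 genes had 4.99 per 100 kb. In the own list of replicate 1 the values were 4.90 with ptc and 2.85 without, beside 2.70 over the arms. In that of replicate 2 they were 4.90 and 3.21, beside 3.07. Among the 2901 conservative peaks of higher signal they were 4.24 and 3.21, beside 2.11. The members other than ptc thus lay close to the density of the arms in each sample's own list, and farther above it among the stronger conservative peaks. The arms take in all sequence, including Y with 0 conservative peaks, so they are not a like background for gene windows. Protein-coding genes with windows of 15 to 30 kb averaged 1.32 conservative peaks. Of the members in that class besides ptc, wg and hh had 2 each, and arm, Axn and ci had 0. Over 30 kb, protein-coding genes averaged 2.48 and members 2.33. At up to 15 kb, protein-coding genes averaged 0.743, and smo had 3.

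Most shared member peaks, like most shared peaks of the list, were higher in replicate 2. Over the 12 shared ones the signal in replicate 2 was a median of 1.16 times that in replicate 1 (from 0.922 to 2.30), and replicate 2 was higher in 9. Over all 2891 shared peaks the median was 1.24 and replicate 2 was higher in 2277. No source used here says whether both signals are on 1 scale, so the ratio compares member peaks with other peaks, not amounts of protein.

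**Figure D4:**
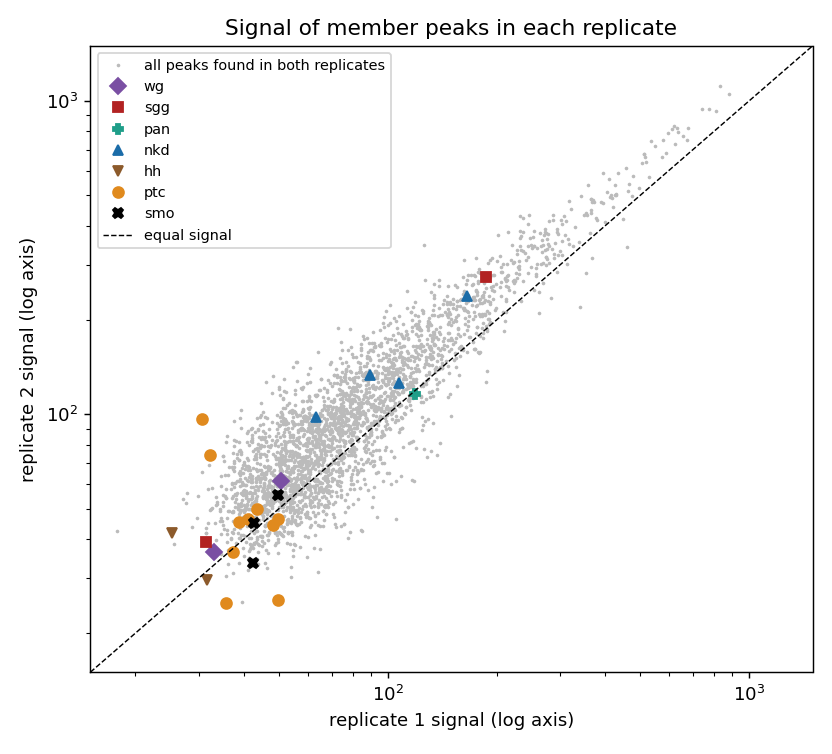
The signal of each member peak in replicate 1 is plotted against that in replicate 2 (both log axes), taken from the highest overlapping entry in each sample's ranked list. Grey points are all peaks found in both thresholded lists, and the strongest peak of the list falls outside the axes. The sgg and nkd peaks of highest signal lie among the grey points, and the 2 points of ptc farthest above the line have 74.1 and 96.7 in replicate 2.

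Sequence at the member summits was rich in A and T, as it was in the list as a whole. Within 50 bp of the summit the median G+C content was 35.7% (17.8 to 57.4%), beside 33.7% over all conservative summits and 47.5% over candidates that overlap no conservative peak. The longest run of A and T had a median of 8 bases, beside 9 and 6. In the sequences printed above it was 18 bases at the nkd summit 12129 bp from the start and 6 at smo. The promoter summit of ptc was among the exceptions, with 57.4% G+C.

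Consensus words were searched on both strands in the same windows. None of the 24 summits held CTTTGAT, the core of the TCF/Pangolin site, which was at 1.72% of all conservative summits, or GACCACCCA, the Ci/GLI site, at 0.0172%. None held GCCGCC, the Pangolin helper core (3.14% of all), TATTTTAA (5.10%), TATCGATA, the DRE (1.15%), or GGTCACAC, Motif 1 (0.810%). If the summits are taken as independent, a count of 0 in 24 allows a share of up to about 12.5% (3 in 24). The limit is only rough, because 10 of the 24 lie in the window of ptc. The share of each of these words over all conservative summits was below it. GAGAG, the GAGA factor word, was at 3 of 24 summits (12.5%). It was at 10.5% of all conservative summits and 12.5% of candidates that overlap no conservative peak, so the member share was near both. All 3 were in the window of ptc, which holds 10 of the 24 summits. They lay at -3, 10065 and 18130 bp from the start site, the first at the promoter and the last inside Acsl.

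The wider pathways were described with 43 further genes. Of these, 35 had a conservative summit in the window and 17 at a promoter, and the members had 7 and 3 of 10; a promoter peak was called at 20.1% of protein-coding genes. By window length, a window peak was present at 12 of 17 of the further genes at up to 15 kb. It was present at 9 of 12 at 15 to 30 kb and 14 of 14 over 30 kb. These counts are read against the shares of window peaks given above for protein-coding genes. Among 24 Wingless genes, 20 had a window peak and 12 a promoter peak. The highest were at gish, which encodes a casein kinase (1330.2, at -156 bp), gro, which encodes the corepressor Groucho (592, at -136 bp), and fz, which encodes a Frizzled receptor (572, intronic and nearest to the start site of lncRNA:CR45025). Those of dsh, the gene of Dishevelled (446), and fz3 (306) lay in upstream flanks, nearest to the start sites of CG1737 and lncRNA:CR44966. Wnt2, lgs, pygo and por had none.

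Among 16 Hedgehog genes, 13 had a window peak and 5 a promoter peak. The highest was in the window of Gprk2, which encodes a G-protein-coupled receptor kinase that acts on Smoothened (1419.4), nearest to the start site of PNPase. Those of nej, the gene of the coactivator CBP (415), and shf (207) were also nearest to other genes, lncRNA:CR42657 and Coq7. rdx, which encodes an adaptor for the degradation of Ci, had 404 at the highest of its 11 peaks, and sotv, a heparan sulphate polymerase gene, 203 at its promoter. disp, fu and Su(fu) had none. Of 3 target genes, dpp and kn had peaks, up to 291 and 166, that of kn nearest to the start site of BEAF-32, and en had none. The lists of further genes were chosen by name, and no test was made of them.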

How the data were processed

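Peak lists on dm6 were deposited for each of the 2 samples and for both together, per the file listings. No source used here names the aligner, the peak caller or their versions. The deposited signal (column 7) is the authors' peak height, and the deposited −log10 values (column 12) are the authors' global irreproducible discovery rate (IDR). Summits came from column 10. All conservative peaks passed a −log10 IDR of 2 in their ranked list; 137 further entries of that list passed as well and were not counted as peaks. Depth is unknown, because the lists hold no read counts.

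Gene models were those of Ensembl release 115 (BDGP6, transposable elements left out), and the sequence was RefSeq's copy of the same assembly. No peak ran past a chromosome end. Summits were counted in windows with Python 3.11.15 and pandas 2.3.3, in code checked on planted data. A conservative peak was found in a replicate if it overlapped a thresholded peak by at least 1 bp. Replicate values are those of the highest overlapping ranked entry. With 1 group, results are descriptions without p-values. Series-level values are pooled and have no error.

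The members, lists, words and rules were chosen with earlier results of these data known. All members and their peaks are named, as are the nearest start sites of their peaks and up to 5 genes per further list by highest signal, with the genes that had none. Sequences from ptc are not printed. Results were recomputed with the stronger part of the conservative list, the other series-level list, single samples, other flanks, promoter windows and overlap rules. The split by window length was added after the data were seen.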

Additional observations from a re-analysis of the deposited data

How the results depend on the processing

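Under the other lists, flanks and overlap rules tried, 34 of 42 recomputed values stayed within 1.5 times the value reported. The number of members with a peak stayed between 5 and 8, members with a promoter peak at 3 or 4, and peaks found in both replicates at 10 to 12. In the 2901 conservative peaks of higher signal, peaks in the member windows fell to 13, or 4.24 per 100 kb, beside 2.11 over the arms, since that list has fewer peaks by construction. Without a flank they numbered 12, and other pathway genes with a peak 22, in place of 35. In single-sample lists the windows held 15 peaks with either replicate left out (4.90 per 100 kb). For single genes, 24 of 80 counts moved by more. Without a flank ptc had 4 peaks, pan 0 and smo 0; hh had 0 in each sample alone; with a flank of 10 kb Axn gained 1. The depth behind a missing peak is unknown, so absence from a list does not show absence of the protein.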

Other observations

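Of the 29 protein-coding genes with at least 10 summits in the window, the 5 with the most were kirre (30), CG1677 (22), hth (17), sbb (17) and Hr4 (15). Their windows were longer than that of ptc, from 76.0 to 404 kb. CHES-1-like, with 14 peaks in 37.0 kb, and ph-p, with 12 in 22.2 kb, had the windows nearest in length to that of ptc. These genes were named after their values were seen.

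The 5 member peaks of highest signal were also narrow, from 104 to 237 bp, whereas the other 19 had the width of 316 bp. Over all conservative peaks 19.8% were narrower than 316 bp, with a median signal of 264, against 81.0 for those of 316 bp.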
